A study of Mus musculus with 2 samples.

Results

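Collagen genes were compared between RNA of cultured mouse embryonic fibroblasts (MEFs, connective tissue cells taken from embryos) of Lats2-/- and Lats2+/+ C57BL/6J mice. Members were all probes of the array, control spots apart, whose gene name is Col, a number, the letter a and a second number. This gave 40 collagen genes of 27745 gene names, represented by 81 of 41174 probes and 99 spots on each array. Each of 2 Agilent whole mouse genome arrays held both RNAs, one labelled with the red dye Cy5 and the other with the green dye Cy3. The first array had the Lats2-/- RNA (KO) in Cy5 and the Lats2+/+ RNA (WT) in Cy3, and the second had the dyes exchanged. All cells were untreated, and both genotypes shared the C57BL/6J strain. The labels name neither separate cultures nor embryos, and embryo age, sex and passage were not given in the sources used here. The arrays were therefore counted as 1 replicate of each genotype measured with both dyes, and no p-value is given for a difference. The genotype field of the labels spells the gene LAT2, while the titles spell it LATS2.

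Collagens are proteins built from 3 chains wound into a triple helix, and each Col gene encodes 1 such chain. Most are secreted, while the transmembrane collagens are anchored in the cell membrane. Fibrillar collagens assemble into the fibrils that give connective tissue its tensile strength, network collagens form sheets such as those of basement membranes, and FACIT collagens (fibril-associated collagens with interrupted triple helices) coat the fibrils. Beaded filament collagen VI forms microfibrils around cells, and multiplexins carry heparan or chondroitin sulphate chains and lie in basement membrane zones. Fibroblasts are the main source of fibrillar collagen in connective tissue, and chains are hydroxylated in the endoplasmic reticulum, trimmed outside the cell and crosslinked by lysyl oxidases.

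Values are log2 ratios of KO over WT on each array, and levels are normalised intensities in arbitrary units that include an offset of 50. A gene was tested when the probe that stood for it was well above background on both arrays in at least 1 of the RNAs. It was called when its ratio was at least 2-fold on each array, in 1 direction, and the probe was above background on both arrays in the RNA in which it was higher. In log2 units the between-array SD of a probe was 0.136 over all probes above background and 0.106 over the tested collagen genes. Median signals were 96.8 and 98.5 in Cy5 and 60.1 and 58.2 in Cy3, no gene spot was saturated, and the number of arrays limits the precision. Lats2, the targeted gene, went against the labels: 3 of its 4 probes gave positive ratios (0.56, 0.56 and 0.63) and 1 a negative one (-0.35). The place of the deletion within the gene is not given in the sources used here, so whether a probe lies in the deleted part is unknown, and each direction below is that of the RNA labelled KO against the RNA labelled WT.

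Of 6 fibroblast markers listed, 5 had a probe without outlier flags: Pdgfra, Pdgfrb, Thy1, P4hb and Vim. All 5 were above background on both arrays in at least 1 RNA, Vim on only 1 array in KO. Their summed level was 82880 to 89152 in the RNA labelled KO and 104962 to 111410 in the RNA labelled WT. The Vim probe in this sum was dim, and a brighter one that carried an outlier flag gave -0.19 and -0.81. S100a4, also listed, was outside the sum because of outlier flags. With flags kept it gave 0.82 and -0.74, at 188526 and 128475 in KO and 107051 and 214394 in WT. No member of the endothelial list was above background on both arrays (0 of 5). Of the other lists, 2 of 6 epithelial, 3 of 5 macrophage, 3 of 6 chondrocyte, 1 of 5 osteoblast, 2 of 5 muscle and 3 of 4 Schwann and neural crest markers were. The summed macrophage level was 458 to 488 in the RNA labelled KO and 654 to 679 in that labelled WT, where Cd14, a lipopolysaccharide co-receptor, was called lower (-1.05). The macrophage markers Csf1r and Cd68 gave -0.05 and 0.14, and Ptprc and Emr1 were not above background. The summed muscle level was 22408 to 25428 against 12965 to 14999, nearly all of it Acta2, the smooth muscle actin that fibroblasts also make (mean log2 ratio of 0.79), and 2 brighter Acta2 probes that carried outlier flags gave 0.28 and 0.11. The smooth muscle myosin Myh11 went the other way (-0.46), and Myod1, Myog and Myf5 were not above background on both arrays. Chondrocyte markers summed to 1141 to 1202 against 955 to 982, most of it Sox9 (0.46), where Acan gave 0.01 and Comp -0.50 and the list median was 0.01. Osteoblast markers summed to 1817 to 2017 against 2411 to 2504, most of it Runx2 (-0.41). Epithelial and endothelial sums overlapped between the RNAs, and the Schwann and neural crest sum was 407 on both arrays in KO and 398 and 392 in WT. The part of these markers in the collagen values was not tested, and in such RNA mixtures fewer cells of a type and less RNA per cell cannot be told apart.

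Of the 40 collagen genes, 29 were tested, and for the other 11 no RNA was above background on both arrays. Called higher in the RNA labelled KO were 2 genes, Col4a6 and Col8a2, 6.9% of those tested, where 2.95% of all 15877 gene names tested were called higher. Called lower were 6 genes, Col11a1, Col12a1, Col18a1, Col6a1, Col6a2 and Col15a1, 20.7% of those tested, against 2.61% of all gene names. At any size, 18 collagen genes (62.1%) were lower on each array and 9 were higher, against 41.4% and 40.2% of all gene names. The median log2 ratio of the tested collagen genes was -0.45, and that of all gene names tested was 0.00. With median centring in place of loess, only Col4a6 and Col8a2 were called higher and only Col11a1 and Col15a1 lower. Of all gene names, 1.57% and 0.869% were called in that setting. There 9 collagen genes were lower on each array, for which no share of all gene names is given. The mean ratio of all 6 genes called lower stayed negative (-2.16 to -1.21). From the ratios that Feature Extraction gives, the calls were 5 higher and 7 lower, where 5.93% and 5.45% of all gene names were called, and with a normexp offset of 10 they were 4 and 7, where 4.11% and 3.58% were.

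**Figure D1:**
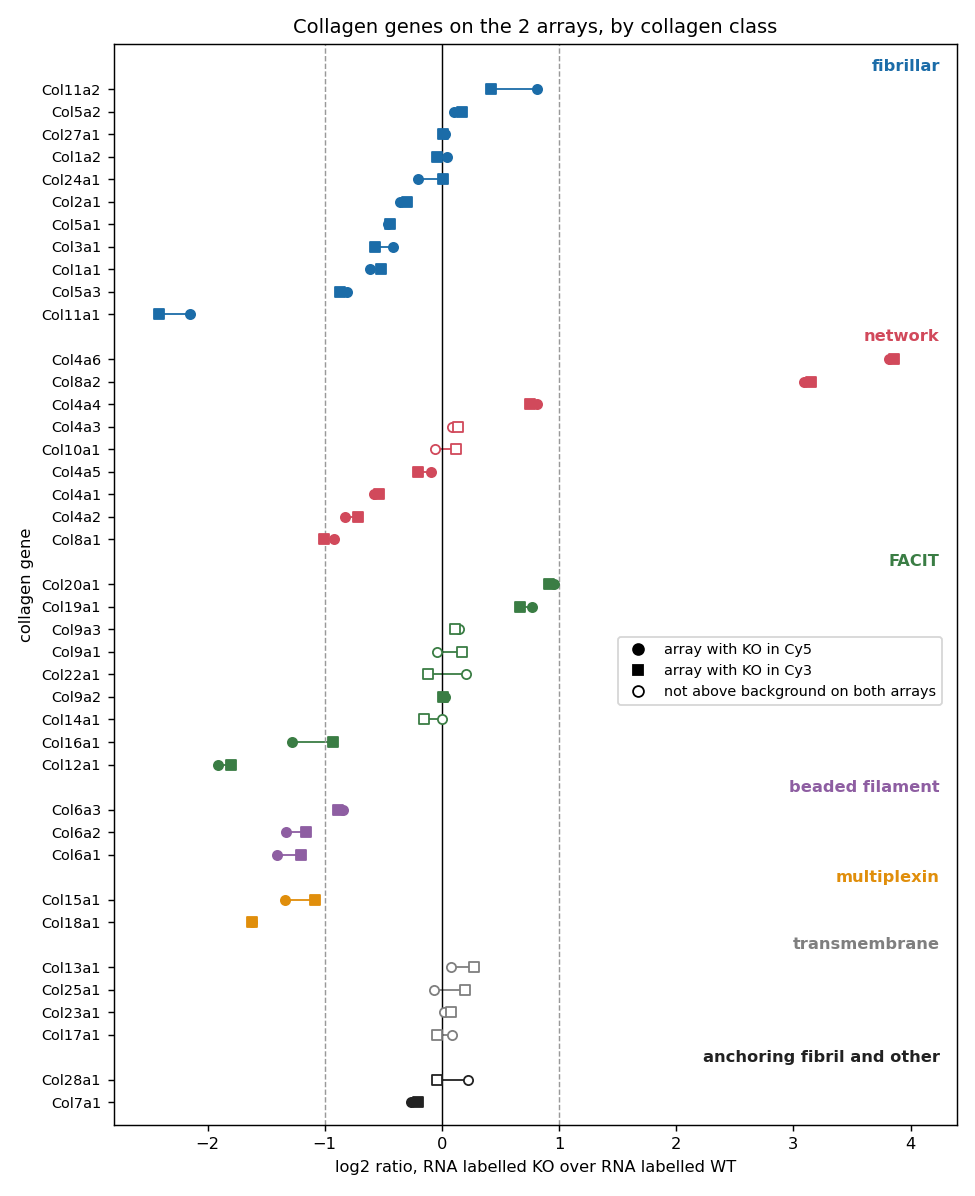
Log2 ratio (x axis) of each of the 40 collagen genes (y axis, grouped by class) on the arrays with KO in Cy5 (circles) and in Cy3 (squares); open symbols mark genes not above background on both arrays in either RNA, dashed lines mark 2-fold. Col4a6 and Col8a2 lie beyond 3 on both arrays, and the 6 genes called lower lie beyond -1 on both.

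Bright collagen genes were mostly lower in the RNA labelled KO. Among the brightest 25% of gene names, a split chosen after the values had been seen, were 14 collagen genes, of which 13 were lower on each array and 1, Col5a2, was higher. Of all gene names in that 25%, 43.4% were lower on each array. Called lower there were 4 collagen genes, Col11a1, Col12a1, Col6a1 and Col6a2, against 2.77% of the gene names. The median ratio of the 14 was -0.82, where that of all gene names in the 25% was -0.01. With median centring, 13 of the 14 still had a negative mean, but 5 were lower on each array. Of the 9 collagen genes higher on each array, Col20a1, Col19a1, Col11a2, Col27a1 and Col9a2 had a mean log2 intensity under 8.

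**Figure D2:**
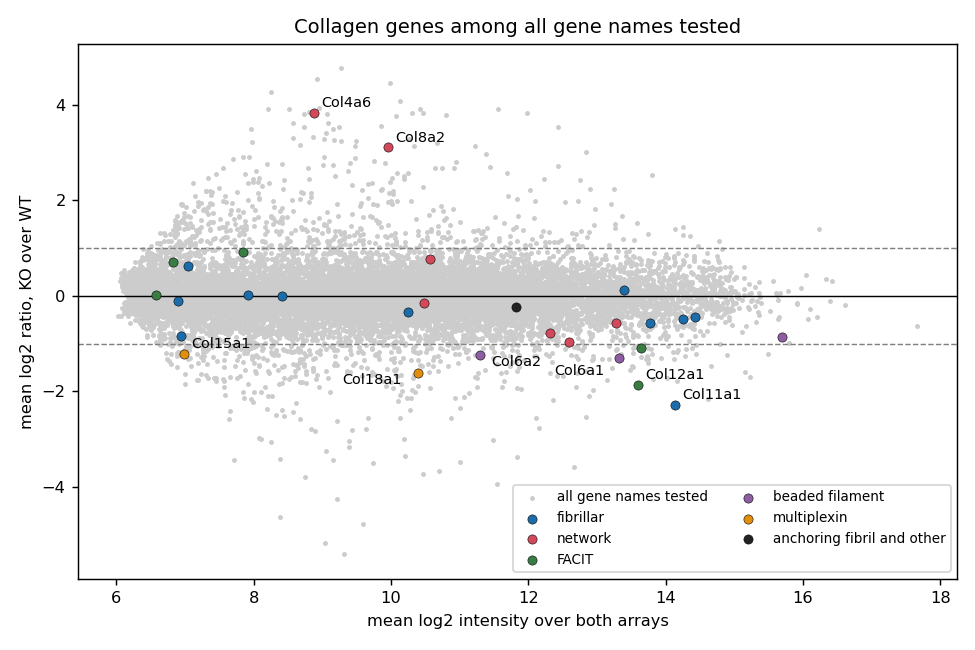
Mean log2 ratio over both arrays (y axis) against mean log2 intensity (x axis) for the 15877 gene names tested (grey) and the 29 tested collagen genes (coloured by class); dashed lines mark 2-fold and the 8 called genes are named. Right of an intensity of 12, the collagen genes lie below 0 except Col5a2 at 0.13.

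The network collagens held both genes called higher. Col4a6 encodes the alpha 6 chain of collagen IV, the scaffold of basement membranes, and Col8a2 a chain of collagen VIII, known from the membrane under the corneal endothelium. The level of Col4a6 was 1947 and 1641 in the RNA labelled KO and 138 and 113 in the RNA labelled WT, on the first and second array. On this probe the difference was 14.3-fold (log2 ratios of 3.82 and 3.86). Col8a2 was at 2982 and 2883 in KO and at 349 and 324 in WT, 8.72-fold higher (3.09 and 3.15). The ratios that Feature Extraction gives were larger, at 4.84 for Col4a6 and 3.39 for Col8a2.

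The probes of Col4a6 disagreed. The probe above, at positions 136411815 to 136411874 of chromosome X (mm8, NCBI36), is the one nearest the 3' end of the 3, since the probes run on the minus strand. A second probe at 136412641 to 136412700 was above background only in the RNA labelled KO, at 155 and 127, and there the level was at least 2.08-fold higher. The third, at 136413257 to 136413316, was above background in both RNAs and gave 309 and 303 in KO against 334 and 373 in WT, log2 ratios of -0.12 and -0.30. In WT it was brighter than the first probe (138 and 113). The first probe thus stood for Col4a6 through its level in KO. The 3 probes span 1502 bases. Their log2 ratios thus differed by 4.05, the widest gap among the 15 collagen genes with several probes above background, and averaging the probes gave 1.58 for Col4a6. Exon annotation of that build was not used here, so the place of each probe in the gene's exons or UTR is not given.

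Col4a5 and Col4a6 lie head to head on chromosome X and are transcribed away from each other, with starts 1343 bases apart in RefSeq (GRCm38.p6). Col4a1 and Col4a2 on chromosome 8 also lie head to head on opposite strands. Their starts are 21 bases apart and placed so that the 2 transcripts overlap there. Col4a5, the alpha 5 chain, was at 1393 and 1330 in KO and 1478 and 1525 in WT, log2 ratios of -0.09 and -0.20, where its partner's brightest probe stood at 3.84. Col4a1 and Col4a2, which encode the chains of the most widespread collagen IV trimer, went together (-0.56 and -0.78), and 4 probes of the pair ranged from -0.79 to -0.56. Col4a4 was higher at 0.78, short of 2-fold, while its partner Col4a3 was not above background in either RNA. Of these 3 pairs, Col4a1 and Col4a2 had like values on each of their 4 probes. In Col4a5 and Col4a6 only the second was called, but the third Col4a6 probe (-0.12 and -0.30) was like Col4a5. Whether this pair went together thus depends on the probe. Of Col4a3 and Col4a4 only the second could be read.

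The 250 bases before the start of Col4a6, of its neighbour Col4a5 and of Col8a2 are shown because these genes are the one with the largest ratio, its head-to-head partner, and the other gene called higher. They are RefSeq windows on GRCm38.p6 at chrX:141474077-141474326 (minus strand), chrX:141475169-141475418 (plus) and chr4:126286544-126286793 (plus). Capitals mark matches, on either strand, to the GC box GGGCGG, the CCAAT box CCAAT, the core GGAATG that TEAD factors bind, and the TATA box TATAAA, and neighbouring matches can overlap.
Col4a6: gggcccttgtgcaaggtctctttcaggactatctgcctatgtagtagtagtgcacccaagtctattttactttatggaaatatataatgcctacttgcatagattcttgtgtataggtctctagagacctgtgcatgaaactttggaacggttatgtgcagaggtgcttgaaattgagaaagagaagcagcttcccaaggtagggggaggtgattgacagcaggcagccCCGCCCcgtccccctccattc
Col4a5: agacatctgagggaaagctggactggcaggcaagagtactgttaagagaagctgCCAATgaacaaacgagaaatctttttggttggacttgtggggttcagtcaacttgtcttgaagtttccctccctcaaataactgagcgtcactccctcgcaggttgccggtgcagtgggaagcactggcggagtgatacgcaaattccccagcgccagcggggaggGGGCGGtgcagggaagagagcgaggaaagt
Col8a2: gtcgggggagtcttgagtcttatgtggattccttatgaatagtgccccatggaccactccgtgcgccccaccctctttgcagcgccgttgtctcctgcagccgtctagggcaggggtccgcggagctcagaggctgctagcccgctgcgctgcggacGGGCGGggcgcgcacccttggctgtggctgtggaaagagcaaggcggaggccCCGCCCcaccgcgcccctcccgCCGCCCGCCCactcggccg

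The window of Col4a6 held 1 GC box, that of Col4a5 held 1 GC box and 1 CCAAT box, and that of Col8a2 held 4 GC boxes. None of the 3 held GGAATG or TATAAA. Of 32851 mouse promoter windows of that length 32.7% held GGGCGG, 33.8% CCAAT, 12.6% GGAATG and 12.4% TATAAA. Of the 38 windows of 35 collagen genes in the table, 22, 13, 4 and 5 held them. These are letter matches and say nothing of binding.

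Col8a1, the partner chain of Col8a2, went the other way. Its level was 4582 and 4334 in KO and 8698 and 8731 in WT, log2 ratios of -0.92 and -1.01, which places it just outside the 2-fold rule on 1 array. Its brightest probe had been left out for an outlier flag and gave -0.60 and -0.96. The collagen VIII chains thus stood at 3.12 and -0.97. Col10a1, the collagen of hypertrophic cartilage, was above background on 1 array in KO and on none in WT, and was not tested. The median of the 7 tested network collagens was -0.14.

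On mm8, the probe of Col8a2 lay at 125816501 to 125816560 of chromosome 4, and those of the genes called lower lay as follows. Col11a1 was read at 114211239 to 114211297 of chromosome 3, Col12a1 at 79385147 to 79385206 of chromosome 9 and Col15a1 at 47333331 to 47333390 of chromosome 4. The other 3 were read on chromosome 10, Col6a2 at 76039902 to 76039961, Col6a1 at 76152870 to 76152929 and Col18a1 at 76496791 to 76496850, within a span of 456949 bases.

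**Figure D3:**
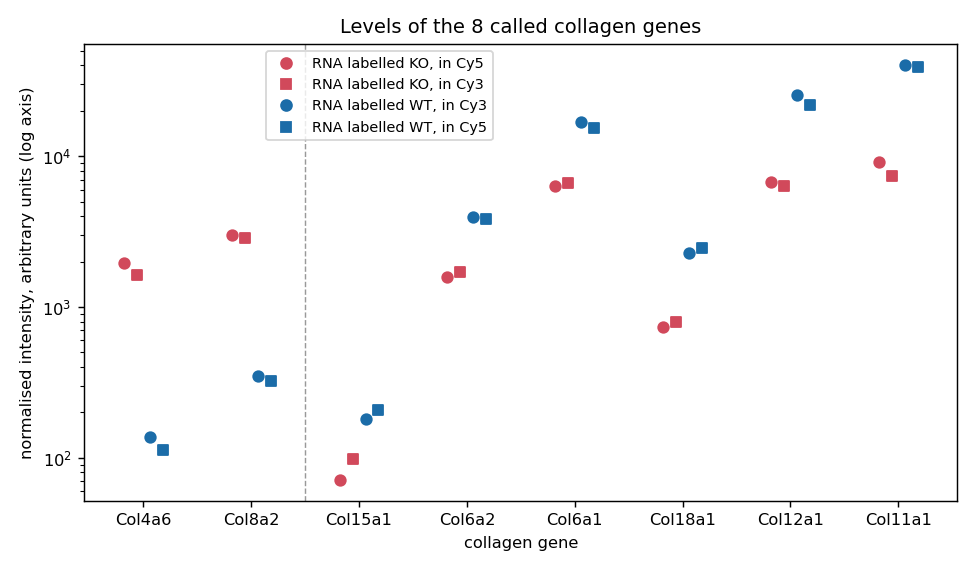
Normalised intensity (y axis, log scale, arbitrary units) of the 8 called collagen genes (x axis) in the RNA labelled KO (red) and WT (blue), with circles for the array with KO in Cy5 and squares for the array with KO in Cy3; genes left of the dashed line were called higher. In each gene both KO points lie on 1 side of both WT points, which the 2-fold rule on each array nearly fixes.

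Among the fibrillar collagens, Col11a1 stood apart. Col11a1 encodes a chain of collagen XI, which regulates fibril diameter. Its level was 9092 and 7397 in the RNA labelled KO and 40356 and 39249 in the RNA labelled WT, so that the KO level was 20.6% of WT (log2 ratios of -2.15 and -2.41). Its other 2 probes were called lower too, at -1.37 and -1.11, and averaging the probes gave -1.59. Col11a2, which encodes the alpha 2 chain of the same trimer, was dim and higher by 0.62 (0.81 and 0.42). The probe of Col2a1, the main cartilage collagen, gave -0.33 and a second one 0.27.

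The collagens of the type I, III and V fibrils of connective tissue were lower by less than 2-fold or hardly differed. Col1a1 was at 11358 and 11837 in KO and 17320 and 16915 in WT (-0.61 and -0.52). Col3a1 was at 17588 and 15694 in KO and 23479 and 23262 in WT (-0.42 and -0.57). Col5a1, whose chain nucleates such fibrils, was at 18810 and 19004 in KO and 25874 and 25804 in WT (-0.46 and -0.44). Each of these 3 genes was lower on each array, where 41.4% of all gene names tested were. Col5a2 was higher on both arrays by 0.10 and 0.17, about the SD of a probe between the arrays, and it lies beside Col3a1 on chromosome 1. Col5a3 was dim, with levels of 84.8 and 99.1 in KO and 149 and 181 in WT, and its ratio of -0.84 passed 2-fold at a normexp offset of 10 (-1.31).

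The brightest probes of both type I chains had been removed by the outlier flags. When flagged spots were kept, a choice made after seeing the data, the probe of Col1a1 that is spotted 10 times gave 47509 and 41197 in KO against 82064 and 77573 in WT (-0.79 and -0.91). The flagged probe of Col1a2 gave 107403 and 91909 in KO against 121946 and 192066 in WT (-0.18 and -1.06), so that the arrays differed by far more than the SD between them. The Col1a2 probe without a flag was dim and gave 0.00. Both bright type I probes were thus lower on each array in the RNA labelled KO, but the size of the Col1a2 difference could not be settled from these arrays. Col24a1 and Col27a1, minor fibrillar collagens, gave -0.10 and 0.02. The median of the 11 fibrillar collagens was -0.33, or -0.45 with flagged spots kept and -0.05 when probes were averaged.

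Of the 3 collagen VI chains that the naming rule took, 2 were called lower and the third stood at -0.86, for a median of -1.24. A further chain, Col6a4, is listed in the files under an older name and lay outside the rule. Its 2 probes were above background in both RNAs and gave mean ratios of 0.43 and -0.06. Col6a1 was at 6306 and 6663 in the RNA labelled KO and 16767 and 15304 in the RNA labelled WT (-1.41 and -1.20). Col6a2 was at 1571 and 1715 in KO and 3945 and 3832 in WT (-1.33 and -1.16), and a second probe of it gave -2.07. Col6a3, whose long chain joins these 2 in the trimer, was at 41707 and 36504 in KO and 74750 and 67441 in WT (-0.84 and -0.89), and its other probes gave -0.75 and -0.46. Col6a1, Col6a2 and Col6a3 were thus lower on each array, where 41.4% of all gene names tested were. With median centring the means stayed negative in all 3, with a median of -1.21, but only 2 of the 3 were lower on each array.

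The FACIT collagens were split. Col12a1, whose product links fibrils to their surroundings, was at 6743 and 6295 in KO and 25410.1 and 21917 in WT, 3.62-fold lower (-1.91 and -1.80), and its second probe gave -1.02. Col16a1 was at 8439 and 9175 in KO and 20440.0 and 17471 in WT, with ratios of -1.28 and -0.93 that put it just outside the rule, and a dim second probe of it gave -0.23. Col20a1 and Col19a1 were dim and higher, by 0.93 and 0.72, and each was called higher with an offset of 10 (1.17 and 1.18). A second Col19a1 probe above background gave 0.15. Col9a2, a cartilage FACIT chain, gave 0.02. Col9a1, Col14a1 and Col22a1 were not above background, and Col9a3 was so on 1 array in KO alone. Of the 5 tested, 2 were lower and 3 higher on each array.

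Both multiplexins were called lower. Col18a1, the source of the fragment endostatin, was at 738 and 795 in KO and 2274 and 2446 in WT (-1.62 on each array), and its second probe gave -1.26. Col15a1 was dim, at 71.3 and 98.2 in KO, where it was above background on 1 of 2 arrays, and at 181 and 207 in WT (-1.34 and -1.08). Its mean ratio of -1.21 was -3.28 in the values of Feature Extraction, and -0.64 when averaged with its second probe, which was not above background, so that the call was lost. Col7a1, the anchoring fibril collagen, gave -0.23, and the transmembrane collagens Col13a1, Col17a1 and Col23a1 were not above background. Col25a1, of the same class, and Col28a1 were above background on 1 array in KO alone and were not tested.

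The windows before the starts of 3 genes called lower are shown for comparison with those above: Col11a1 at chr3:114030290-114030539 (plus strand), Col6a1 at chr10:76726045-76726294 (minus) and Col18a1, which has 2 starts in RefSeq, at chr10:77166531-77166780 and chr10:77113706-77113955 (minus), all on GRCm38.p6 and with capitals as before.
Col11a1: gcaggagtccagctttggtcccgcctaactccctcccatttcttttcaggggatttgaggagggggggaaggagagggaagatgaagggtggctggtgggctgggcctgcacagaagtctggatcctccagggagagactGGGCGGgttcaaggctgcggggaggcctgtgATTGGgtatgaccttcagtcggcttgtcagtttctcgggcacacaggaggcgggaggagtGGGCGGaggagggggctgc
Col6a1: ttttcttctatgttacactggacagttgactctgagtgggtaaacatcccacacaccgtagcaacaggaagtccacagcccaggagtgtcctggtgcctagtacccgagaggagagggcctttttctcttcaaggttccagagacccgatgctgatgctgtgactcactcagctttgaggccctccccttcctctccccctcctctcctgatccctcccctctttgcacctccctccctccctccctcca
Col18a1 upstream start: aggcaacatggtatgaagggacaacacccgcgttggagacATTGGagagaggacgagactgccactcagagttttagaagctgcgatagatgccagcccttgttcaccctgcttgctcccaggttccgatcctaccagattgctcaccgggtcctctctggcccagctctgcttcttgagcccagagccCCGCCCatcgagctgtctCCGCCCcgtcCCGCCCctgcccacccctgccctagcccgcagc
Col18a1 downstream start: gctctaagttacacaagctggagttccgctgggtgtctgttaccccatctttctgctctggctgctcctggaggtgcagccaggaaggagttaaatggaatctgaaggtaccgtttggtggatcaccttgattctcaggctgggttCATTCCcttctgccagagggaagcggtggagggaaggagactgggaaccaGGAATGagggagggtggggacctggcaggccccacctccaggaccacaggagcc

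Col11a1 held 2 GC boxes and 1 CCAAT box, and Col6a1 held none of the letters searched. The upstream start of Col18a1 held 3 GC boxes and 1 CCAAT box and the downstream start 2 matches to GGAATG. The other genes called lower are not shown, and the 3 shown were not picked by a stated rule. Col15a1 held none of the letters searched. Col6a2 held 1 GC box before its upstream start, and 3 GC boxes and 1 match to GGAATG before its downstream start. Col12a1 had no window.

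Several probes above background were available for 15 collagen genes, and in 12 of them all probes had 1 sign. Probes lay more than 1 log2 unit apart in 2 genes, Col4a6 and Col11a1. In 11 of the 15 the brightest probe gave the largest difference in size. In the other 4 a dimmer probe did, at -2.07 against -1.24 in Col6a2, -0.73 against -0.56 in Col4a1, -0.79 against -0.78 in Col4a2 and 0.27 against 0.02 in Col27a1.

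**Figure D4:**
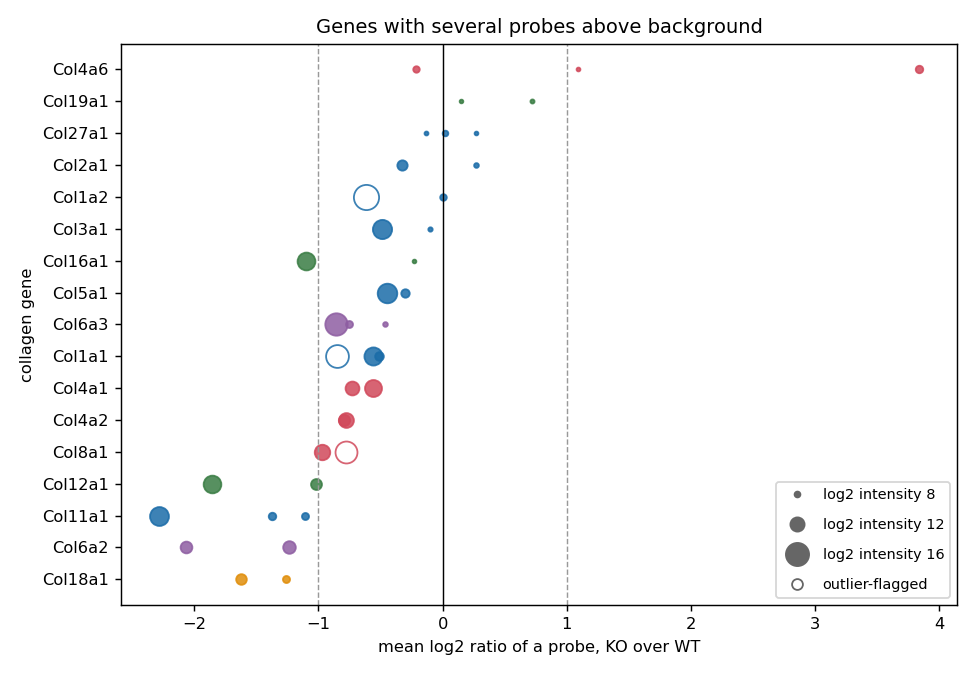
Mean log2 ratio (x axis) of every probe above background for collagen genes with several such probes (y axis); point area grows with log2 intensity and open points are probes removed by the outlier flags. The Col4a6 probes range from -0.21 to 3.84, and all filled and open points of Col11a1, Col12a1, Col6a2 and Col18a1 lie left of -1.

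None of the 15 tested genes that fold and modify collagen chains was called, with 8 lower and 6 higher on each array and a median of -0.12. The 4 brightest were Fkbp10 and Ppib, which are prolyl isomerases, P4hb, the disulphide isomerase that is also a prolyl hydroxylase subunit, and Crtap, which acts in prolyl 3-hydroxylation, and they gave 0.30, -0.21, -0.26 and 0.00. The ends of the range were Leprel2 at -0.72 and Leprel1 at 0.59, both prolyl 3-hydroxylases. Serpinh1, the collagen chaperone HSP47, had its only probe flagged, and with flags kept gave -0.38 and -0.74.

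Of the 10 tested enzymes and enhancers that act on secreted collagen, over the lists of procollagen processing and crosslinking, 3 were called, all higher, where 2.95% of all gene names were called higher. Adamts2, the protease that removes the amino-terminal propeptide of type I procollagen, was at 2827 and 2742 in the RNA labelled KO and 526 and 454 in the RNA labelled WT (2.43 and 2.59). Tll1, a protease of the family that removes the carboxy-terminal propeptide, was at 400.1 and 332 in KO and 148 and 149.6 in WT (1.44 and 1.15). Neither gene's values overlapped between the RNAs, which the 2-fold rule on each array nearly fixes. Bmp1, the main enzyme of that family, gave 0.33, Adamts14 0.17 and Pcolce2, an enhancer of Bmp1, -0.65. The median of the processing list over 5 tested genes was 0.33, or 0.1 when the probes of a gene were averaged. Pcolce had its probe flagged and gave 0.63 and 0.33 with flags kept.

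Each of the 5 lysyl oxidases, which crosslink collagen and elastin, was higher on each array, with a median of 0.73. Loxl2, which also acts on basement membrane collagen IV, was called, at 11463 and 11780 in KO against 2845 and 3154 in WT (2.01 and 1.90). Lox was at 21129.7 and 19504 against 10755 and 13927 (0.97 and 0.49), Loxl3 gave 0.91, Loxl1 0.48 and Loxl4 0.32. With median centring all 5 means stayed positive and 3 were higher on each array. Of all gene names tested 40.2% were higher on each array.

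None of the 6 tested collagen receptors was called. Ddr1 and Ddr2, receptor tyrosine kinases that bind fibrillar collagen, gave 0.58 and -0.52. The collagen-binding integrin chain Itga11 gave -0.44 and its partner Itgb1 -0.02. The median of the list was -0.23, within a range of -0.52 to 0.58.

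**Figure D5:**
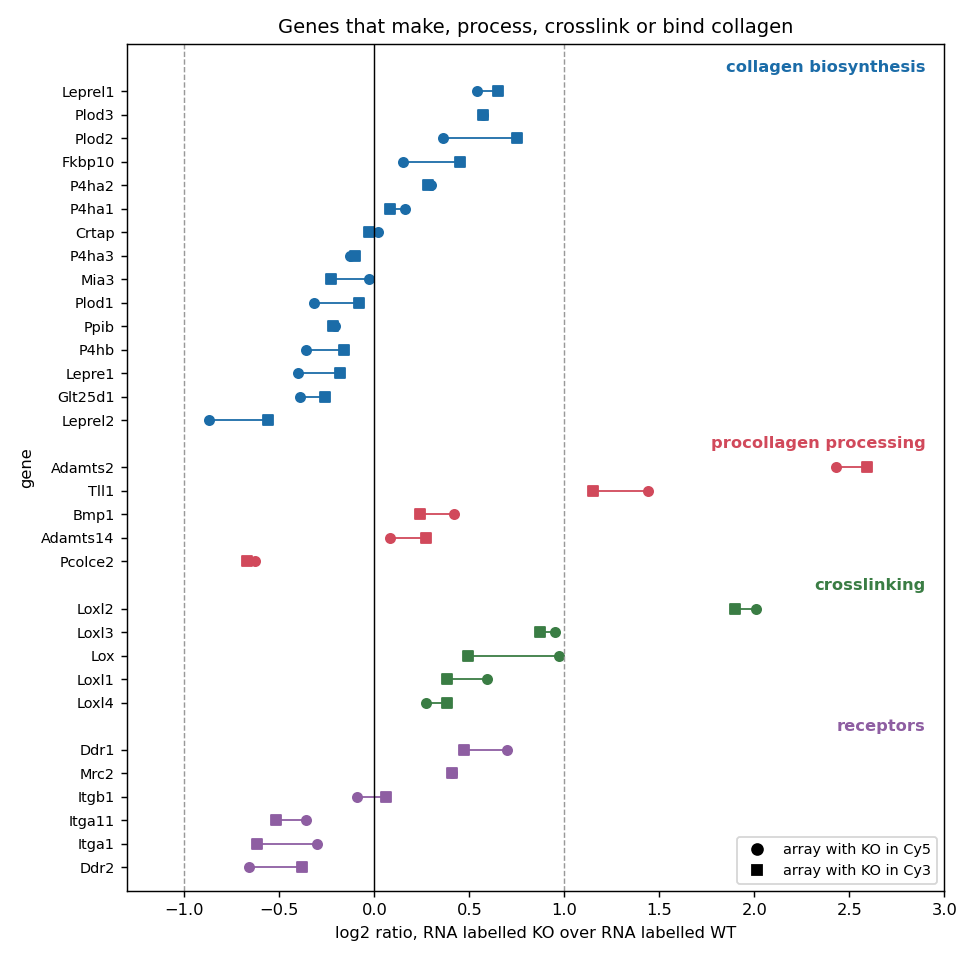
Log2 ratio (x axis) of the tested genes of collagen biosynthesis, procollagen processing, crosslinking and reception (y axis) on the array with KO in Cy5 (circles) and in Cy3 (squares); dashed lines mark 2-fold. Adamts2, Tll1 and Loxl2 lie beyond 1 on both arrays, and all 5 lysyl oxidases lie right of 0.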

How the data were processed

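Total RNA of both genotypes was amplified from an oligo-dT primer, labelled and hybridised to Agilent arrays. Per the file headers both arrays were on 1 slide and 1 scan, read with Agilent Feature Extraction 10.5.1.1, and the mean signal and background median of each spot were deposited by the authors as intensity. The deposited tables also hold Feature Extraction's log10 ratio, and the authors deposited a table of log2 ratios, which matched log2 KO over WT with both arrays turned alike. Probe coordinates are those of the files (mm8, NCBI36).

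Intensities were background corrected in limma 3.58.1 with R 4.3.3 (normexp, offset 50), normalised by loess within each array, and the 1639 control spots and spots with outlier flags (390 and 378) were left out. Of 299 probes lost to the flags, 277 were among the brightest 412 probes. Levels are channel values after Aquantile. The brightest probe stood for a gene. Both arrays were counted as 1 replicate. Calls were tested on simulated data beforehand. Alternatives were background, offset, centring, the deposited ratios, probes, filters, single arrays, the methods' t-test and limma. Every called collagen gene was named with its levels, others above background with ratios, and from each list the called members and the 4 brightest others. Collagen members, classes and gene lists were chosen with earlier results of these data known. Of the 81 probes, 61 had an accession in the reference table, all with the same symbol. Tables were handled in Python 3.11.15 with pandas 2.3.3, plots drawn with matplotlib 3.10.9.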

Additional observations from a re-analysis of the deposited data

How the results depend on the processing

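The count of collagen genes called higher was 2 and became 4 with a normexp offset of 10, 5 from the log ratio of Feature Extraction, 5 from the deposited table and 5 at 1.5-fold on each array, where 4.11%, 5.93%, 5.93% and 7.04% of all gene names were called higher. The count called lower was 6 and became 2 with median centring and 11 at 1.5-fold, where 0.869% and 7.17% of all gene names were called lower. With the mean over all probes it was 5, without Col15a1, where 1.93% were. After Benjamini-Hochberg adjustment the methods' t-test, combined with a 2-fold mean, called 0 higher and 0 lower. Unadjusted p under 0.05 called 2 and 4, and limma after adjustment 2 and 7. These tests treat the arrays as replicates and compare the RNAs hybridised. The share of all gene names that they called is not given here, so these counts cannot be set against a background. The median of the collagen genes was -0.45 and became -0.23 with the mean over all probes and -0.04 with no filter on background flags, which adds 11 genes not above background on both arrays in either RNA. Of 72 alternative values of single called genes, 17 moved by more than the SD between arrays and 0 changed sign. The rule of a call already fixes the sign on each array. Keeping flagged spots left these genes' values as they were, and the deposited table repeats the Feature Extraction ratios. The lack of sign changes is therefore no separate test of these genes. Of 90 alternative medians of classes and lists, 9 moved by more than that and 1 changed sign, that of the FACIT collagens with median centring (-0.01). Keeping flagged spots, chosen after seeing the data, left the counts at 2 and 6. Every ratio compares both genotypes within an array, so it is paired by array, and no replicate block was added.

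The 2 arrays of unreplicated RNA cannot separate genotype from culture, and the targeted gene went against its label. Probes near background are pulled towards 0 by the offset, and the brightest probes were lost to outlier flags, so that Col1a2 is read from a dim probe.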

Other observations

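Collagen genes outside the naming rule were found through the reference table's symbols and synonyms. Apart from Col6a4, the probes of Col6a6 and Col26a1, listed in the files under older names, were not above background.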
